A study of Mus musculus with 8 samples.

Results

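Interferon-stimulated genes are the genes that cells switch on when an interferon binds its receptor, and this set held 42 of the 56884 genes in the count tables. Its members are listed by name as known genes of the interferon response, and the list was drawn up with earlier results of these data known. The set holds 30 genes best known as targets of the type I interferons, called type I members here, and 12 genes best known as targets of interferon-gamma, called interferon-gamma members. The division is one of emphasis, since many genes of either list answer to both kinds of interferon.

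The livers came from female C57BL/6J mice with diet-induced obesity (DIO), killed at 18 months of age. From 2 months of age all of them were given a diet in which lipids supplied 45% of the energy, carbohydrates 35% and proteins 20%. After 4 months, the DIO group stayed on that diet (3 livers), while for the DIO + DHA group (5 livers) a fish oil concentrate rich in docosahexaenoic acid (DHA) took the place of 15% by weight of the dietary lipids. The concentrate held 683.4 mg of DHA and 46.7 mg of eicosapentaenoic acid per g, and 838.9 mg of n-3 fatty acids per g in all. Both groups carried the obesity and the age, and no lean or young liver was measured. Each library is read here as 1 mouse, as the sample titles number mice. The assay counted reads near the 3′ end of polyadenylated RNA from whole liver, so fewer cells of a type and less RNA per cell cannot be told apart.

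The libraries held 1723800 to 5690347 counts, with DIO replicate 1 the shallowest, and 12412 genes passed the filter on low counts. Levels are given as CPM, the standard unit of counts scaled by the size of their library, after TMM scaling. Values of DIO are listed for replicates 1, 4 and 5 and those of DIO + DHA for replicates 1, 2, 4, 5 and 6, in that order. Fold changes are log2 values of DIO + DHA over DIO with their SE, n = 3 and 5 throughout, and a gene was called when the adjusted p of edgeR's quasi-likelihood test was under 0.05. Of all genes tested, 15.2% were called, 7.89% higher and 7.28% lower in DIO + DHA, and their median log2 fold change was 0.0011. Markers of other tissues also separated the groups, and all 35 skeletal muscle genes were higher in DIO + DHA (summed level 1812 to 1996 CPM against 77.9 to 84.9 CPM in DIO), as were 11 of 12 tested genes of stratified squamous epithelium. With the genes of those tissues left out of the scaling, the direction and call of 40 of 40 tested members were unaltered, and their part in the other values was not tested. Hepatocyte markers summed to 123218 to 129275 CPM in DIO and 131259 to 143326 CPM in DIO + DHA, so the markers of the labelled tissue were high in every library.

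Type I interferons (interferon-alpha and interferon-beta) act through the receptor IFNAR on a complex that holds STAT2 and IRF9 and binds the interferon-stimulated response element (ISRE). Interferon-gamma, made mostly by T and NK cells, acts through its own receptor on promoters that hold the gamma-activated site (GAS) and induces IRF1, itself a binder of ISRE-like sequences. In the liver, Kupffer cells, endothelial cells and hepatocytes can all respond to these cytokines.

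The promoters of the members were searched for both elements, which are the sequences these pathways are known to act on. The searched window ran from 250 bases before to 50 bases after the transcript start (GENCODE M39, GRCm39), on both strands. The ISRE core was searched as GAAA, any 2 bases and GAAA, and the GAS as TTC, any 3 bases and GAA, and a match to one can overlap a match to the other. The ISRE core stood in 3.83% of 21667 promoters of protein-coding genes, in 19 of 30 type I members and in 8 of 12 interferon-gamma members. The GAS stood in 8.84% of the same promoters, in 7 of 30 type I members and in 8 of 12 interferon-gamma members. Of the 17 members called in this comparison, 12 held at least 1 of the elements, and of the 23 tested and not called, 18 did. The called members with neither set of letters in their windows were Gbp3, Igtp, Irf7, Ifi44 and Oasl2. Among the called members, Gbp7, Irgm2, Ifi47, Zbp1, Oas1a and Iigp1 held matches to both elements. The windows of Iigp1 are not shown. The windows below, 1 for each gene, are shown because their genes carry the results that follow, with the matching letters in capitals. Each label names only the element in capitals. Those of Isg15, which was not called, and Oas1g, which was too low to test, were added after their values were seen, the former because it is a hallmark gene of the response and the latter as a near copy of Oas1a.
Gbp2 (ISRE), chr3:142326355-142326384, minus strand: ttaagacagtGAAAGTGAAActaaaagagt
Gbp7 (GAS), chr3:142235981-142236010, plus strand: tccgttttctTTCCAGGAAaagcagaagct
Irgm1 (ISRE), chr11:48762252-48762281, minus strand: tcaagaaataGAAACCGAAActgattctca
Irgm2 (GAS), chr11:58090327-58090356, plus strand: aactagccatTTCTAGGAActgaaactgaa
Ifi47 (GAS), chr11:48977753-48977782, plus strand: ccttttctttTTCCTGGAAatgtttatgct
Irf1 (GAS), chr11:53660741-53660770, plus strand: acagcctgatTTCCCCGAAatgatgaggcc
Stat2 (ISRE), chr10:128106135-128106164, minus strand: ctagggaaagGAAACTGAAAccagggtgcg
Trim30a (ISRE), chr7:104114417-104114446, plus strand: caggaactgaGAAAAAGAAActaaagaact
Zbp1 (ISRE), chr2:173060748-173060777, plus strand: caaagaaagaGAAAATGAAActttggtgtg
Usp18 (ISRE), chr6:121222772-121222801, minus strand: agatccaaagGAAAGCGAAActcaggcacc
Isg15 (ISRE), chr4:156285322-156285351, minus strand: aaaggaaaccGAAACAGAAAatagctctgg
Oas1a (ISRE), chr5:121045583-121045612, minus strand: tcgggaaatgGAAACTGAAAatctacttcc
Oas1g (ISRE), chr5:121025669-121025698, minus strand: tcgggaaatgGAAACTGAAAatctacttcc
The last pair of windows had the same letters. The window of Usp18, the called member that was higher in DIO + DHA, held the same type of core as those of members that were lower.

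Of the 40 members tested, 17 (42.5%) were called, 16 lower and 1 higher in DIO + DHA, where 15.2% of all genes tested were called, and the median log2 fold change over the tested members was -0.36. Of the interferon-gamma members, 9 of 11 tested were lower and 0 were higher, with a median of -0.82 (range -1.57 to -0.30). Of the type I members, 7 of 29 tested were lower and 1 was higher, with a median of -0.26 (range -1.44 to 0.47). The difference between the lists was not tested. Irf9, Samhd1, Oas2, Oas3 and Ifit3b had groups that did not overlap but missed the threshold, with log2 fold changes of -0.14, -0.36, -0.95, -1.04 and -0.45. In all, 21 members had groups with no overlap, 20 of them with the lower values in DIO + DHA, against 18.4% of all genes tested with no overlap and 8.88% in that direction. Oas1g and Tgtp2 did not pass the filter and had at most 5 and 4 counts in a library. Oas1a, Oas3 and Tgtp1 passed only through their DIO libraries. Oas1a is among the genes called lower, and Oas1a and Oas3 are among those with no overlap. The interferon-gamma median was the value of Tgtp1, and it was -0.77 with edgeR's own filter, which left Tgtp1 out.

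**Figure D1:**
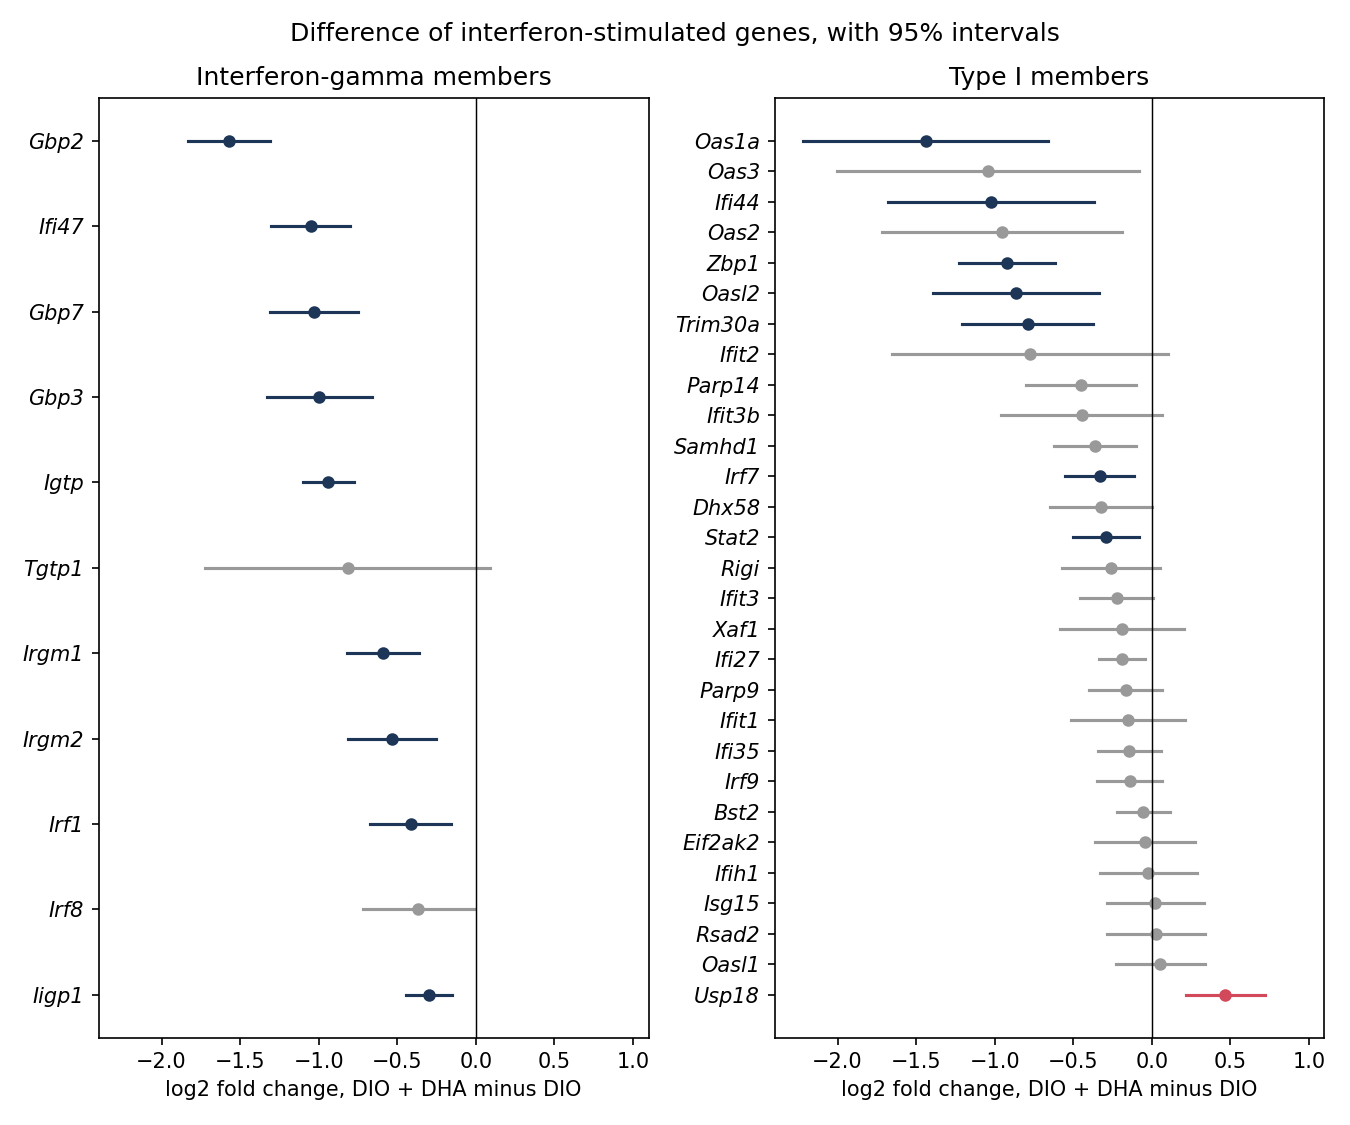
Log2 fold change of DIO + DHA over DIO for the 11 interferon-gamma members (left) and 29 type I members (right) that were tested. Points are the edgeR estimates, bars their 95% intervals, dark blue marks members called lower, red the member called higher and grey those not called, and the interferon-gamma members all lie left of 0 while the type I members run from -1.44 to 0.47.

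The guanylate-binding proteins, large GTPases that coat and help to destroy vacuoles holding pathogens, included the largest difference of the interferon-gamma list. Their 3 members, Gbp2, Gbp3 and Gbp7, lie within 107.7 kb on chromosome 3, and all 3 were lower in DIO + DHA. Gbp2 was measured at 35.4, 49.6 and 43.1 CPM in DIO and 16.5, 13.7, 12.8, 13.6 and 16.2 CPM in DIO + DHA. Every DIO library lay above every DIO + DHA library, and the DIO level was 2.97-fold that of DIO + DHA (log2 fold change -1.57, SE 0.13, edgeR adjusted p = 6.52e-15). Gbp7 was measured at 27.00, 28.1 and 31.4 CPM in DIO and 15.1, 13.7, 11.1, 15.7 and 14.8 CPM in DIO + DHA (log2 fold change -1.03, SE 0.14, edgeR adjusted p = 4.85e-08). Gbp3 was measured at 16.9, 22.4 and 19.9 CPM in DIO and 10.9, 9.05, 7.85, 12.9 and 9.17 CPM in DIO + DHA (log2 fold change -0.995, SE 0.17, edgeR adjusted p = 4.91e-06). For both genes the groups did not overlap, and DIO was 2.04-fold and 1.99-fold the level of DIO + DHA. Gm43802 overlaps 11.3% of the exonic bases of Gbp7, where reads of the pair cannot be told apart.

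The immunity-related GTPases, a family with effectors that attack the membranes of vacuoles holding pathogens, had 7 members in the list. Of these, 6 were tested and 5 were lower, where 7.28% of all genes tested were lower. Iigp1 encodes an effector of the family and was measured at 224, 209.9 and 217 CPM in DIO and 179, 176, 171, 167 and 189 CPM in DIO + DHA. Its groups did not overlap, though its difference was the smallest of the called interferon-gamma members (log2 fold change -0.30, SE 0.07, edgeR adjusted p = 0.00224). Igtp, also known as Irgm3, encodes a regulator of the effectors and was measured at 125, 145 and 141 CPM in DIO and 73.2, 70.04, 69.9, 75.4 and 72.3 CPM in DIO + DHA. The DIO + DHA values spanned a narrow range, and DIO was 1.92-fold their level (log2 fold change -0.94, SE 0.08, edgeR adjusted p = 3.80e-14). Ifi47, an effector of the family, was measured at 39.4, 38.6 and 37.6 CPM in DIO and 19.04, 16.1, 18.9, 17.3 and 20.5 CPM in DIO + DHA. It too showed a clear gap between the groups, with a DIO level 2.07-fold that of DIO + DHA (log2 fold change -1.05, SE 0.12, edgeR adjusted p = 9.32e-10).

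Irgm1 and Irgm2 encode regulators that keep the effectors off the membranes of the cell itself. Irgm1 was measured at 38.3, 41.7 and 46.7 CPM in DIO and 26.6, 27.1, 31.04, 31.1 and 27.1 CPM in DIO + DHA (log2 fold change -0.59, SE 0.11, edgeR adjusted p = 6.50e-05). Irgm2 was measured at 34.3, 24.9 and 26.97 CPM in DIO and 17.1, 22.8, 16.1, 21.8 and 18.1 CPM in DIO + DHA (log2 fold change -0.53, SE 0.14, edgeR adjusted p = 0.00456). Both were lower in DIO + DHA with no overlap, and the closest libraries of Irgm2 were DIO replicate 4 (24.9 CPM) and DIO + DHA replicate 2 (22.8 CPM). Igtp and Irgm2 lie in a stretch of 23.2 kb on chromosome 11 and share 8.01% of the exonic bases of Igtp, and 17.1% of the 80-base windows near the 3′ end of Irgm2 also occur elsewhere in the transcriptome, so part of their reads could have been dropped or assigned to a neighbour. Tgtp1 had 0.563, 1.62 and 3.55 CPM in DIO and 1.79, 1.01, 1.78, 0.937 and 0.874 CPM in DIO + DHA. Its groups overlapped (log2 fold change -0.82, SE 0.45, edgeR adjusted p = 0.262), and all of its 3′ windows also occur in Tgtp2, so the reads of this pair are uncertain.

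Irf1 and Irf8 encode transcription factors that carry the response on to other genes. Irf1 was measured at 26.4, 29.8 and 28.04 CPM in DIO and 20.6, 21.4, 24.97, 20.1 and 20.3 CPM in DIO + DHA. All DIO libraries lay above all DIO + DHA libraries, with a small gap between DIO replicate 1 and DIO + DHA replicate 4 (log2 fold change -0.41, SE 0.13, edgeR adjusted p = 0.0187). The call of Irf1 was lost without DIO replicate 4 (edgeR adjusted p = 0.140) and without DIO replicate 5 (edgeR adjusted p = 0.0691). It was also lost with DESeq2 (adjusted p = 0.0757), with thinned libraries (edgeR adjusted p = 0.111), with a replicate block and under limma-voom's threshold of B above 0. For Irf1, 20.0% of the exonic bases lie under the antisense gene Gm17334. Irf8, which is needed for the development of several myeloid cells, was measured at 10.7, 14.2 and 15.4 CPM in DIO and 11.5, 9.72, 14.3, 9.60 and 10.05 CPM in DIO + DHA. Its groups overlapped and it was not called (log2 fold change -0.37, SE 0.18, edgeR adjusted p = 0.175).

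Summed over the list, the interferon-gamma members stood at 579 to 612 CPM in DIO and 379 to 399 CPM in DIO + DHA. The mean of the DIO + DHA libraries was 64.6% of the DIO mean. The calls of Gbp2, Gbp3, Gbp7, Ifi47, Igtp, Iigp1, Irgm1 and Irgm2 held whichever single library was left out. With the libraries thinned to the shallowest, Iigp1 (edgeR adjusted p = 0.125) and Irgm2 (0.0501) lost the call, and both also lost it under limma-voom's threshold of B above 0. The count of 9 ranged from 8 to 9 over the fits that left out 1 library. It was 6 with thinned libraries and 6 at B above 0. The median of -0.82 was more sensitive and ranged from -0.98 without DIO replicate 1 to -0.54 without DIO replicate 5, and in the full fit it was the value of Tgtp1. Within DIO, replicate 1 had the lowest value in 8 of 11 members.

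**Figure D2:**
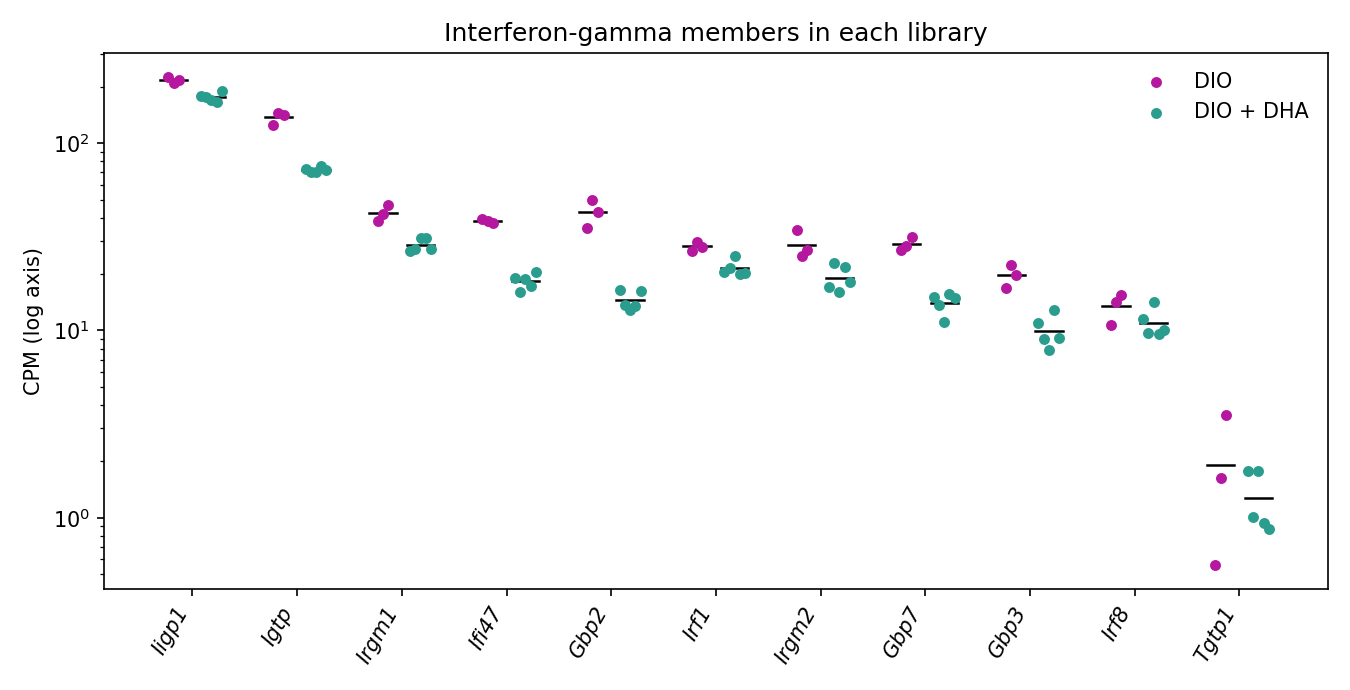
Level of the 11 tested interferon-gamma members in every library, in CPM on a log axis, with DIO in magenta, DIO + DHA in green and a short line at each group's mean. The groups are apart for the 9 called genes, most widely for Gbp2 (35.4 to 49.6 CPM against 12.8 to 16.5 CPM), and overlap for Irf8 and Tgtp1.

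Among the regulators of the type I response, Stat2 and Irf7 were slightly lower and Usp18 was higher in DIO + DHA. Stat2 encodes a subunit of the type I complex and was measured at 44.4, 51.9 and 55.2 CPM in DIO and 43.2, 48.6, 40.7, 37.2 and 41.5 CPM in DIO + DHA. DIO replicate 1 lay below DIO + DHA replicate 2, so the groups overlapped, and the gene only just passed the threshold (log2 fold change -0.29, SE 0.10, edgeR adjusted p = 0.0468). Irf9, the DNA-binding subunit of that complex, was measured at 50.1, 50.7 and 49.9 CPM in DIO and 40.3, 41.9, 49.6, 48.2 and 48.3 CPM in DIO + DHA. Its groups did not overlap, but DIO + DHA replicate 4 came close to DIO replicate 5 and the gene was not called (log2 fold change -0.14, SE 0.10, edgeR adjusted p = 0.426). Irf7, a factor that amplifies type I interferon production, was measured at 40.5, 39.8 and 44.2 CPM in DIO and 32.3, 31.2, 35.3, 36.1 and 31.01 CPM in DIO + DHA. Its groups were apart (log2 fold change -0.33, SE 0.11, edgeR adjusted p = 0.0296).

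Usp18 encodes a protease that removes ISG15 from proteins and blocks signalling at the type I receptor, and it was the single member called higher. It was measured at 20.3, 23.8 and 24.8 CPM in DIO and 30.9, 30.5, 30.7, 32.3 and 37.6 CPM in DIO + DHA. All 5 DIO + DHA libraries exceeded all 3 DIO libraries (log2 fold change 0.47, SE 0.13, edgeR adjusted p = 0.00547), and the call held whichever library was left out. Isg15, the ubiquitin-like protein that USP18 removes, was measured at 15.8, 17.9 and 17.6 CPM in DIO and 15.5, 14.1, 21.4, 18.3 and 19.2 CPM in DIO + DHA and was not called (log2 fold change 0.02, SE 0.15, edgeR adjusted p = 0.948, 95% interval -0.28 to 0.33). For Isg15, 23.6% of the 3′ windows also occur in Gm46878.

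Zbp1 encodes a sensor of Z-form nucleic acids that can start cell death, and it was measured at 25.3, 22.5 and 23.4 CPM in DIO and 10.9, 12.1, 13.2, 15.2 and 10.9 CPM in DIO + DHA. The DIO level was 1.89-fold that of DIO + DHA and the groups did not overlap (log2 fold change -0.92, SE 0.15, edgeR adjusted p = 4.26e-06). The cytosolic RNA sensors Rigi (log2 fold change -0.26), Ifih1 (-0.02), Dhx58 (-0.32) and Eif2ak2 (-0.04) were not called. Their edgeR adjusted p-values ran from 0.202 for Dhx58 to 0.948 for Ifih1.

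The oligoadenylate synthetases sense double-stranded RNA and activate RNase L, and the related Oasl proteins carry ubiquitin-like domains in addition. Of the 6 members of this family, 5 were tested and 2 were lower, where 7.28% of all genes tested were lower. Of the tested members, Oas1a and Oas3 passed the filter only through their DIO libraries, where they were higher. Oas1a was measured at 5.06, 3.43 and 3.19 CPM in DIO and 2.18, 1.34, 0.714, 0.937 and 1.09 CPM in DIO + DHA. Those levels correspond to at most 19 counts in a library, and the groups did not overlap (log2 fold change -1.44, SE 0.39, edgeR adjusted p = 0.00563). Since 54.9% of its 3′ windows are shared with Oas1g, its count is uncertain. Oasl2 was measured at 8.44, 5.23 and 7.81 CPM in DIO and 4.76, 3.35, 4.64, 3.51 and 2.62 CPM in DIO + DHA. The groups were apart (log2 fold change -0.86, SE 0.26, edgeR adjusted p = 0.0163), while its neighbour Oasl1, which lies with it within 41.0 kb on chromosome 5, had overlapping groups (log2 fold change 0.06, SE 0.14, edgeR adjusted p = 0.865).

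Of the other effectors, Trim30a and Ifi44 were lower. Trim30a, a ubiquitin ligase of the TRIM family, was measured at 15.8, 12.3 and 9.05 CPM in DIO and 5.75, 5.03, 6.42, 7.96 and 7.86 CPM in DIO + DHA. DIO values were uneven, yet all lay above those of DIO + DHA (log2 fold change -0.79, SE 0.21, edgeR adjusted p = 0.00469). Ifi44, an interferon-induced protein found in the cytoplasm, was measured at 3.94, 4.51 and 4.44 CPM in DIO and 2.18, 1.34, 3.21, 2.81 and 1.31 CPM in DIO + DHA. Its groups did not overlap, with at most 25 counts in a library (log2 fold change -1.02, SE 0.33, edgeR adjusted p = 0.0234).

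The most abundant type I members that were not called are listed next. Ifi27, an interferon-induced protein of mitochondria and the nuclear envelope, was measured at 263, 294 and 316 CPM in DIO and 270.0, 234, 255.8, 248 and 276 CPM in DIO + DHA. DIO replicate 1 lay below DIO + DHA replicates 1 and 6 (log2 fold change -0.19, SE 0.07, edgeR adjusted p = 0.0763). Bst2, or tetherin, which holds budding virions at the cell surface, was measured at 83.3, 96.3 and 94.8 CPM in DIO and 94.02, 85.8, 88.1, 87.8 and 88.9 CPM in DIO + DHA. All DIO + DHA libraries lay within the DIO range (log2 fold change -0.05, SE 0.08, edgeR adjusted p = 0.762). Ifi35, a partner of the transcriptional regulator Nmi, was measured at 63.01, 57.3 and 78.96 CPM in DIO and 64.3, 65.4, 65.3, 56.2 and 53.9 CPM in DIO + DHA. DIO replicate 5 was the highest library of Ifi35 and the other DIO libraries lay among those of DIO + DHA (log2 fold change -0.14, SE 0.10, edgeR adjusted p = 0.410), and 29.2% of its 3′ windows also occur in Vat1.

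The Ifit proteins bind viral RNA and limit its translation, and none of their 4 genes, which lie within 99.3 kb on chromosome 19, was called. Ifit3 was measured at 34.3, 37.3 and 44.9 CPM in DIO and 34.1, 41.6, 33.5, 30.9 and 31.4 CPM in DIO + DHA. The groups overlapped (log2 fold change -0.22, SE 0.12, edgeR adjusted p = 0.225), and 5.37% of its 3′ windows also occur in Ifit3b. The log2 fold changes of the other Ifit genes were -0.15 for Ifit1, -0.78 for Ifit2 and -0.45 for Ifit3b. Rsad2, or viperin, an antiviral enzyme that makes a chain-terminating nucleotide, was not called either (log2 fold change 0.03, SE 0.16, edgeR adjusted p = 0.935). In all, 21 type I members were tested and not called, with log2 fold changes from -1.04 to 0.06 and edgeR adjusted p-values from 0.0505 (Samhd1) to 0.948. Samhd1, which breaks down the nucleotides that viruses need, had a log2 fold change of -0.36, and Xaf1, an interferon-induced promoter of cell death, one of -0.19. Of those 21, 18 had a negative fold change.

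**Figure D3:**
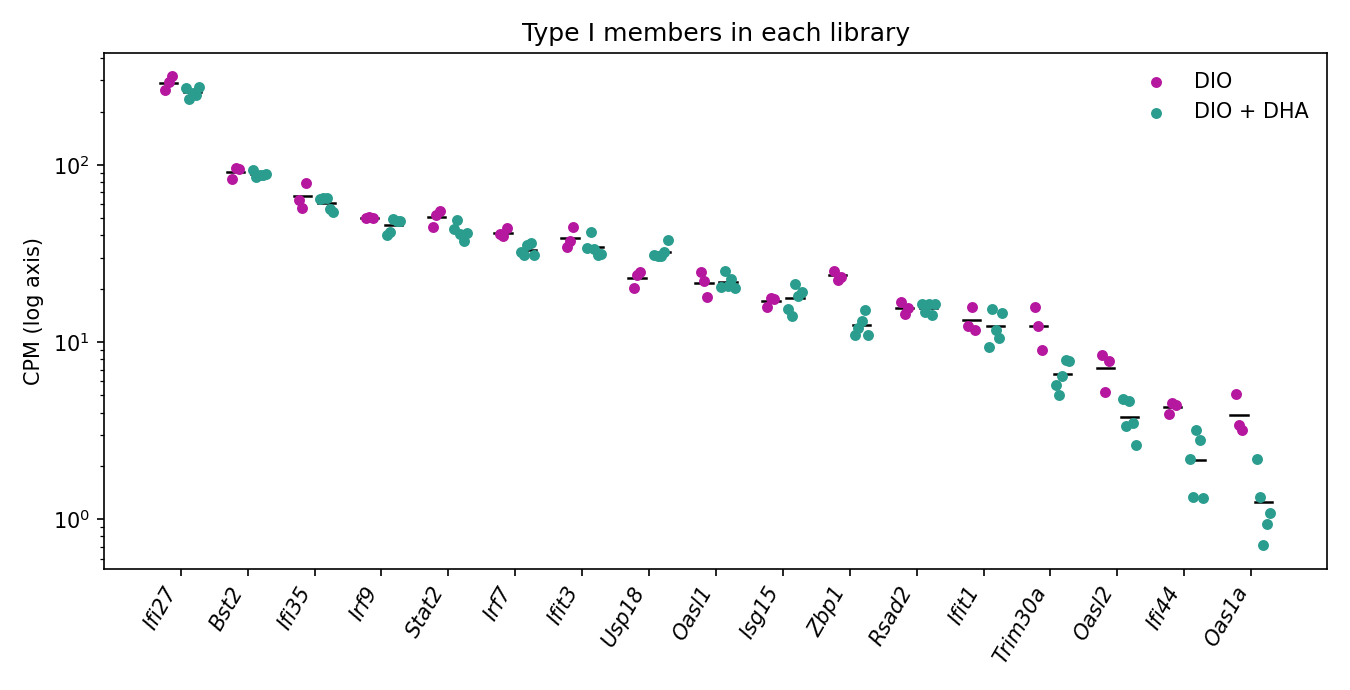
Level of the 8 called type I members and of 9 not called (the 5 most abundant, with Ifit1, Isg15, Rsad2 and Oasl1) in every library, in CPM on a log axis, with DIO in magenta, DIO + DHA in green and a short line at each group's mean. The groups are apart for Zbp1 (22.5 to 25.3 CPM against 10.9 to 15.2 CPM), apart in the other direction for Usp18, and overlap for Isg15, Rsad2 and Bst2.

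The count of 8 called type I members fell to 4 without DIO replicate 4 and to 4 without DIO replicate 5. The calls of Oas1a, Usp18 and Zbp1 held in every fit that left out 1 library, but that of Oas1a was lost with the libraries thinned to the shallowest (log2 fold change -0.89, edgeR adjusted p = 0.404), and those of Oas1a and Usp18 were lost under limma-voom's threshold of B above 0. The edgeR adjusted p of Stat2 rose to 0.163 without DIO replicate 4, 0.318 without DIO replicate 5, 0.0682 without DIO + DHA replicate 1, 0.0706 without DIO + DHA replicate 4 and, with DIO + DHA replicate 5 left out, 0.115. That of Irf7 rose to 0.0613 without DIO replicate 4, 0.230 without DIO replicate 5, 0.0639 without DIO + DHA replicate 1, 0.0570 without DIO + DHA replicate 2 and, with DIO + DHA replicate 6 left out, 0.0507. Both genes thus lost the call in 5 of 8 such fits. Ifi44 lost it without DIO replicate 4 (edgeR adjusted p = 0.103), DIO replicate 5 (0.0960), DIO + DHA replicate 2 (0.0524) or DIO + DHA replicate 6 (0.0681). Oasl2 lost it without DIO replicate 1 (edgeR adjusted p = 0.0522) or DIO replicate 5 (0.180), and Trim30a without DIO replicate 4 (0.0544). In the other direction, Ifi27 passed the threshold without DIO replicate 1 (edgeR adjusted p = 0.0302) or DIO + DHA replicate 6 (0.0256), Samhd1 without DIO + DHA replicate 6 (0.0143) and Parp14 without DIO + DHA replicate 5 (0.0368). Summed over the list, the type I members stood at 898 to 987 CPM in DIO and 817 to 846 CPM in DIO + DHA, with no overlap and a DIO + DHA mean of 88.2% of the DIO mean.

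The interferons themselves were close to undetected. Of 12 interferon genes, none passed the filter and 9 had no count in any library. Ifng had 2 counts over the 3 DIO libraries and 0 over the 5 DIO + DHA libraries. Ifnz had 1 count in DIO, and Ifnk had 1 count in DIO + DHA. A difference in interferon transcripts was therefore not detectable at this depth.

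All 4 chains of the interferon receptors were tested and none was called. The log2 fold changes were 0.15 for Ifnar1 and 0.03 for Ifnar2, the chains of the type I receptor, and -0.13 for Ifngr1 and 0.15 for Ifngr2, those of the interferon-gamma receptor. Of 18 tested genes of receptors and signalling, 4 (22.2%) were lower and 0 higher, with a median log2 fold change of -0.21. Among all genes tested, 15.2% were called and 7.28% were lower. Among the lower genes were Stat3, the main mediator of interleukin-6 signals (log2 fold change -0.74, SE 0.09, edgeR adjusted p = 2.16e-09), Irf2bp2, a corepressor partner of IRF2 (log2 fold change -0.48, SE 0.17, edgeR adjusted p = 0.0358), and Ptpn6, the phosphatase SHP-1 (log2 fold change -0.38, SE 0.13, edgeR adjusted p = 0.0425). Jak1, the kinase shared by both receptors, was not called (log2 fold change -0.22, SE 0.10, edgeR adjusted p = 0.166), nor was the phosphatase gene Ptpn11 (log2 fold change 0.07, SE 0.13, edgeR adjusted p = 0.822). The count of 4 fell to 2 without DIO replicate 1, DIO replicate 4, DIO + DHA replicate 4 or DIO + DHA replicate 6.

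Of 18 tested genes of nucleic acid sensing, 3 (16.7%) were lower and 0 higher, a share of calls near the 15.2% of all genes tested, with a median log2 fold change of -0.24. They were Mavs, the mitochondrial adaptor of the RNA sensors (log2 fold change -0.50, SE 0.13, edgeR adjusted p = 0.00347), Myd88, the adaptor of most Toll-like receptors (log2 fold change -0.53, SE 0.14, edgeR adjusted p = 0.00462), and Rnaseh2a, the catalytic subunit of RNase H2 (log2 fold change -0.57, SE 0.16, edgeR adjusted p = 0.00738). Rnaseh2c, another subunit of that enzyme, was not called (log2 fold change -0.10, SE 0.09, edgeR adjusted p = 0.532), and neither was Irf3, which starts interferon transcription (log2 fold change -0.01, SE 0.09, edgeR adjusted p = 0.956). The count of 3 fell to 1 without DIO replicate 4 and to 0 without DIO replicate 5.

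A wider list of 101 interferon-induced genes outside the set had 95 tested, with a median log2 fold change of -0.38. Of the 95, 26 were lower and 2 were higher (29.5% called), where 15.2% of all genes tested were called. The count of 28 fell to 18 without DIO replicate 4. The smallest p-values belonged to Ccl5 and Cxcl9, chemokines that attract T cells. Ccl5 ran from 93.7 to 111 CPM in DIO and from 31.0 to 35.3 CPM in DIO + DHA (log2 fold change -1.64, SE 0.09, edgeR adjusted p = 2.59e-21), and it is also a marker of T and NK cells. Cxcl9, typically induced by interferon-gamma, ran from 40.1 to 48.3 CPM in DIO and from 11.5 to 17.8 CPM in DIO + DHA (log2 fold change -1.71, SE 0.13, edgeR adjusted p = 8.17e-16). Next came Apol9b (log2 fold change -0.59, SE 0.09, edgeR adjusted p = 4.53e-07), Ly6e, a surface protein that limits coronavirus entry (log2 fold change -0.45, SE 0.07, edgeR adjusted p = 4.76e-07), and Apol9a (log2 fold change -0.76, SE 0.13, edgeR adjusted p = 4.59e-06). The near-identical Apol9 pair can share reads. The higher genes were Tor3a (log2 fold change 0.78, SE 0.14, edgeR adjusted p = 1.95e-05) and Trim12c (log2 fold change 0.80, SE 0.25, edgeR adjusted p = 0.0175). Lgals9, which encodes galectin-9 (log2 fold change 0.12, SE 0.06, edgeR adjusted p = 0.247), and Lgals3bp, a galectin-binding protein (log2 fold change -0.21, SE 0.08, edgeR adjusted p = 0.0908), were not called.

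Markers of macrophages and Kupffer cells and of T and NK cells were lower along with the members. B cell markers overlapped in summed level (198 to 223 CPM in DIO, 191 to 224 CPM in DIO + DHA). Neutrophil markers overlapped as well (17.4 to 23.3 CPM in DIO, 15.4 to 24.2 CPM in DIO + DHA). The part of these cells in the results was not tested. Over all genes tested, the called shares were 7.28% lower and 7.89% higher. Of 20 markers of macrophages and Kupffer cells, 17 were lower and Marco was higher (log2 fold change 0.66, SE 0.13, edgeR adjusted p = 0.000109), with a summed level of 1181 to 1285 CPM in DIO and 664 to 713 CPM in DIO + DHA. Clec4f, which is specific to Kupffer cells, was lower (log2 fold change -0.72, SE 0.09, edgeR adjusted p = 2.30e-08). Of the T and NK cell markers, 9 of 15 tested were lower and 0 higher, 5 of the 20 listed were below the filter, and the list had a summed level of 157 to 174 CPM in DIO and 57.1 to 67.1 CPM in DIO + DHA. A large part of that sum was Ccl5, which also stands in the wider list of interferon-induced genes above, so the lists are not independent. The T cell marker Cd3e was near 0, with 16 counts over the DIO libraries and 5 over the DIO + DHA libraries, while the cytotoxic cell marker Nkg7 was lower (log2 fold change -1.63, SE 0.20, edgeR adjusted p = 1.67e-09). Sinusoidal endothelial markers summed to 319 to 343 CPM in DIO and 243 to 283 CPM in DIO + DHA, with 4 of 14 lower. Plasmacytoid dendritic cells, a known source of type I interferon, could not be followed, since their marker Siglech had at most 4 counts in a library. Of the conventional dendritic cell markers, 1 of 5 tested was lower, and of the neutrophil markers 0 of 4 passed edgeR's threshold, with 1 at an unadjusted p under 0.05. B cell markers had 1 of 5 higher, cholangiocyte markers 1 of 6 higher, stellate cell markers 2 of 12 lower and 1 higher, and hepatocyte markers 4 of 11 lower and 3 higher. The higher stellate cell marker was Des (log2 fold change 3.53), which is also in the skeletal muscle list. The only called plasmacytoid dendritic cell marker of the 2 tested was Ly6d (log2 fold change 0.32, SE 0.10, edgeR adjusted p = 0.0232), which is also a marker of squamous epithelium.

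**Figure D4:**
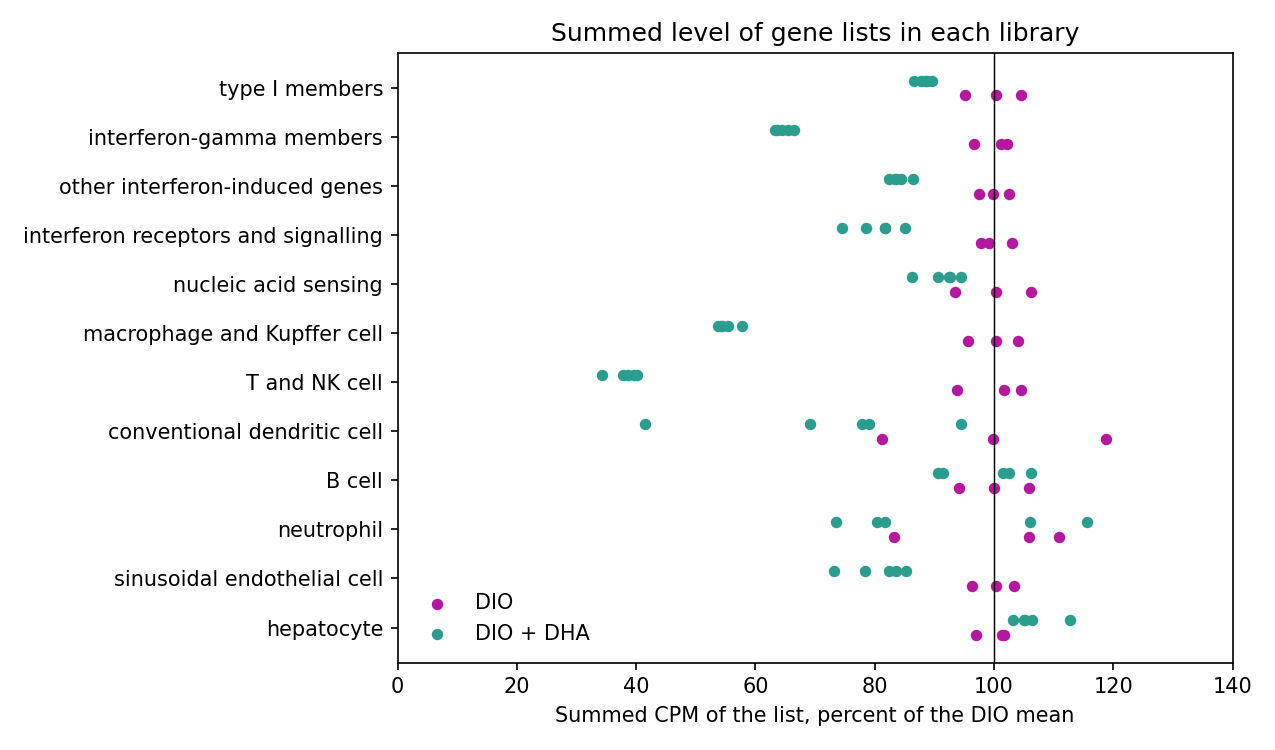
Summed CPM of each gene list in every library as a percent of the list's DIO mean, with DIO in magenta and DIO + DHA in green. The DIO + DHA libraries lie at 63.3% to 66.5% for the interferon-gamma members and 86.6% to 89.7% for the type I members. They lie at 53.8% to 57.7% for macrophage and Kupffer cell markers and 34.2% to 40.2% for T and NK cell markers. The T and NK cell list and the list of other interferon-induced genes both hold Ccl5. For B cell markers (90.6% to 106%) and neutrophil markers (73.6% to 116%) they overlap the DIO libraries.

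Members that lie within a stretch of a chromosome were called together in some cases and not in others. Among all genes tested, 15.2% were called and 7.28% were lower. All 3 guanylate-binding protein genes on chromosome 3 and both of Igtp and Irgm2 on chromosome 11 were lower, while 0 of the 4 Ifit genes on chromosome 19 were called. The 4 neighbours Irgm1, Tgtp1, Tgtp2 and Ifi47 lie within 235 kb on chromosome 11, and 2 of them were lower, while Tgtp2 was too low to test. The 4 Oas genes lie within 177 kb on chromosome 5, where Oas1a was lower and Oas1g was too low to test. Parp9 and Parp14, ADP-ribosyltransferase genes that lie together within 139.7 kb on chromosome 16, were not called (log2 fold changes -0.17 and -0.45), and Parp9 shares 9.40% of its exonic bases with Dtx3l.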

How the data were processed

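Poly(A)+ RNA of whole liver was sequenced with a 3′-directed protocol adapted from SCRB-seq. The authors checked the reads with FastQC 0.11.8, trimmed them, aligned them to GRCm39 with STAR 2.7.9a and deposited raw read counts per gene (featureCounts 1.6.0). Whether unique molecular identifiers were collapsed was not given in the sources used here. Counts of all 8 libraries were tested with edgeR 4.0.16 (quasi-likelihood, robust, TMM scaling, R 4.3.3). The sample labels used here do not divide the libraries into batches, and no batch term was fitted. Before the test, every gene that had fewer than 5 counts in over 50% of both the DIO and the DIO + DHA libraries was removed. P-values were adjusted by Benjamini-Hochberg over all 12412 genes tested. The steps were tested on simulated data. Alternatives were limma 3.58.1 (voom, the authors' tool, by adjusted p and at B above 0, the authors' own threshold), DESeq2 1.42.0, other scalings and filters, thinned libraries, a replicate block and leaving out each library. GENCODE M39 named 56323 of the 56884 gene identifiers and gave the coordinates, transcript starts and shared exons. Near-identical transcripts were found by 80-base windows over the last 600 bases of each transcript.

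The members and lists were chosen with earlier results of these data known. Values in every library were given for each called member and for the 5 most abundant uncalled members of each list, of which the interferon-gamma list had 2. Of the other lists, up to 5 called genes with the smallest p-values and the 2 most abundant uncalled genes were named. Tor3a, Trim12c, Isg15, Rsad2, Oasl1, Oas2, Oas3, Samhd1, Xaf1, the RNA sensors, receptor subunits, other Ifit and Parp genes and cell markers were named after their values were seen. The listed symbols Mnda, Ifgga3 and Tf matched no gene name here. The values of 1 gene of the signalling list are not reported here.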

Additional observations from a re-analysis of the deposited data

Results flagged for a closer look

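Among the DIO + DHA libraries, 60 values were examined for a single library set apart from the other 4 by Dixon's gap criterion (critical value 0.71 for 5 samples), and 4 were marked, where chance marks about 1 in 20. Usp18 reached 37.6 CPM in DIO + DHA replicate 6, with the next library at 32.3 CPM, and its call held without that library. Irf1 reached 24.97 CPM in DIO + DHA replicate 4, with the next at 21.4 CPM. Oas1g, which was too low to test, reached 1.01 CPM in DIO + DHA replicate 2, with the next at 0.218 CPM. The summed level of the interferon genes was 0.234 CPM in DIO + DHA replicate 5 and 0 in the other DIO + DHA libraries, a difference of 1 count.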

How the results depend on the processing

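The interferon-gamma count (9) stayed at 6 to 9 in every alternative run and at 8 to 9 when 1 library was left out, all calls being lower. The type I count (8) was 4 with DESeq2, 4 with libraries thinned to the shallowest, 4 with a replicate block and 4 to 8 without 1 library. It was 1 with limma-voom at B above 0, the authors' own threshold. The same-numbered libraries did not deviate together (r -0.046 to -0.0072), and differently numbered ones ran from -0.14 to 0.12. So few pairs cannot show whether the numbers pair mice. DIO + DHA replicates 2 and 6 had no DIO library of the same number, so with the block they did not inform the difference between the groups. With the block, the receptor and signalling count (4) was 2 and the medians were -0.30 (type I) and -0.62 (interferon-gamma). The type I median was -0.19 with 10 counts required in every library and -0.29 to -0.24 without 1 library. The interferon-gamma median was -0.67 with limma-voom under either threshold, -0.70 without a filter, -0.69 thinned and -0.98 to -0.54 without 1 library. The signalling count was 2 with DESeq2, 2 at B above 0, 2 without a filter and 2 to 3 without 1 library. The sensing count (3) was 0 at B above 0 and 0 to 3 without 1 library. The count of other interferon-induced genes (28) was 13 at B above 0, 18 thinned and 18 to 31 without 1 library. Over all genes, 1883 calls became 860 at B above 0, 1192 thinned and 1432 to 1859 without 1 library.

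Members near 0 changed sign and none of them was called. Thinning gave Ifit1 0.057, Oasl1 -0.14, Ifih1 0.025 and Xaf1 0.041, and the block gave Ifih1 0.017. Without 1 library the ranges were -0.27 to 0.039 for Ifit1, -0.049 to 0.077 for Isg15, -0.067 to 0.13 for Oasl1, -0.022 to 0.068 for Rsad2, -0.26 to 0.043 for Ifi35, -0.21 to 0.22 for Ifih1 and -0.11 to 0.073 for Eif2ak2. The cause of these shifts was not tested. Depth limits members with few counts, such as Oas3, Ifit2, Oas1a, Tgtp1, Oas2 and Ifi44, and the interferons, and reads from shared exons or near-identical copies cannot be assigned.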
